A study of Homo sapiens with 4 samples.

Results

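The transcripts described here encode the 6 peroxiredoxins (PRDX1 to PRDX6), thioredoxin (TXN), the glutathione peroxidases GPX1 and GPX4, and superoxide dismutase SOD1. They are 10 genes of the 44715 gene symbols listed for each library. They were taken by family and not by a cutoff, except that PRDX2 was singled out, chosen by its measured values in these libraries: abundant in 3 libraries and listed at 0 in IgG replicate 1. Those PRDX2 values are therefore a description and carry no test. All 10 genes were found and all 10 passed the filter of 5 CPM (the gene's reads scaled to a common library total) in at least 2 of the 4 libraries.

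The libraries come from HEK293T, an established human embryonic kidney line with no genetic change or drug treatment named in the labels. Lysates were kept under native conditions and precipitated overnight, with an antibody to PHGDH, a serine synthesis enzyme, in 2 libraries and with a control IgG antibody in 2 libraries. The series text calls the pair of libraries per antibody biological replicates and presents the comparison as a test of whether PHGDH associates with RNA. A library of the unprecipitated lysate was not analysed here, so a CPM value is a share of what a precipitate held, and less of a transcript or more of all other RNA cannot be told apart.

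Peroxiredoxins are abundant peroxidases that reduce hydrogen peroxide with a reactive cysteine, and thioredoxin returns most of them to the reduced state. Glutathione peroxidases do related work with glutathione and a selenocysteine in the active site. Superoxide dismutases act a step earlier and turn superoxide into the hydrogen peroxide that both families remove. The enzymes are divided among compartments: PRDX1, PRDX2, TXN and SOD1 are mainly cytosolic, PRDX3 is mitochondrial and PRDX4 lies in the endoplasmic reticulum.

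The libraries held 3365837 and 1216477 reads on genes (anti-PHGDH 1 and 2, in that order) and 3875746 and 1579430 reads (IgG 1 and 2). IgG replicate 1 stood apart: it listed 4148 genes above 0, against 14518 to 16767 in the other libraries, and 61.9% of the 9524 genes tested were at 0 there. Of 7 transcripts listed as expressed in HEK293T cells, not as specific to them, 7 were above 0 in each of the other 3 libraries. In IgG replicate 1, 4 of the 7 were above 0, and KRT8, PAX2 and LIN28B were at 0. The summed level of the 7 ran from 496 to 1481 CPM. PAX2 was only at 1.49 and 1.64 CPM with anti-PHGDH and 1.90 CPM in IgG replicate 2. Of 10 markers of other cell types, 0 to 5 were above 0 in a library and their sum stayed at or below 16.3 CPM. COL1A1 among them was above PAX2 in the same libraries, at 8.62, 12.3 and 7.60 CPM. Of the red cell genes, HBB and ALAS2 were at 0 in all 4 libraries while HBA1 was at 2.67, 3.29, 0 and 0.633 CPM (anti-PHGDH 1 and 2, IgG 1 and 2). Log2 fold changes of the 10 transcripts are given with and without IgG replicate 1; without it the IgG arm is 1 library, which limma assumes to vary like the others.

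The comparison of the antibodies gave no call among these transcripts. In limma on log2(CPM + 1), adjusted by Benjamini-Hochberg across all genes tested, 0 of the 9 transcripts tested passed an adjusted p of 0.05, and 0 of the 9 had an unadjusted p under 0.05. The background is small as well, with 0.0105% of all genes called higher and 0% called lower. The adjusted p of the 9 ran from 0.677 to 0.996 in limma, and edgeR and DESeq2 on the recovered reads also called 0, again with 0 at an unadjusted p under 0.05. With 2 libraries per antibody an exact permutation test of a single value cannot go below p = 0.333. The median log2 fold change of the 10 (anti-PHGDH over IgG) was 0.06, where the median of all genes tested was 1.92. Without IgG replicate 1 these medians were -0.48 and 0.14. The medians of all genes are not matched for abundance. Of all genes tested 61.9% were at 0 in IgG replicate 1, against 15.6% of those with at least 100 CPM in each other library.

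A second reading used no variance estimate and asked for a 2-fold difference on CPM + 1 in every pair of an anti-PHGDH and an IgG library. None of the 10 transcripts was 2-fold higher (0 of 10, background 9.30%) and none was 2-fold lower (0 of 10, background 0.0840%). The values of the antibodies did not overlap for GPX1 in the higher direction (1 of 10, background 38.3%) and for SOD1 in the lower direction (1 of 10, background 6.16%). The remaining 8 transcripts had overlapping values. These backgrounds cover all genes tested as well and are not matched for abundance.

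**Figure D1:**
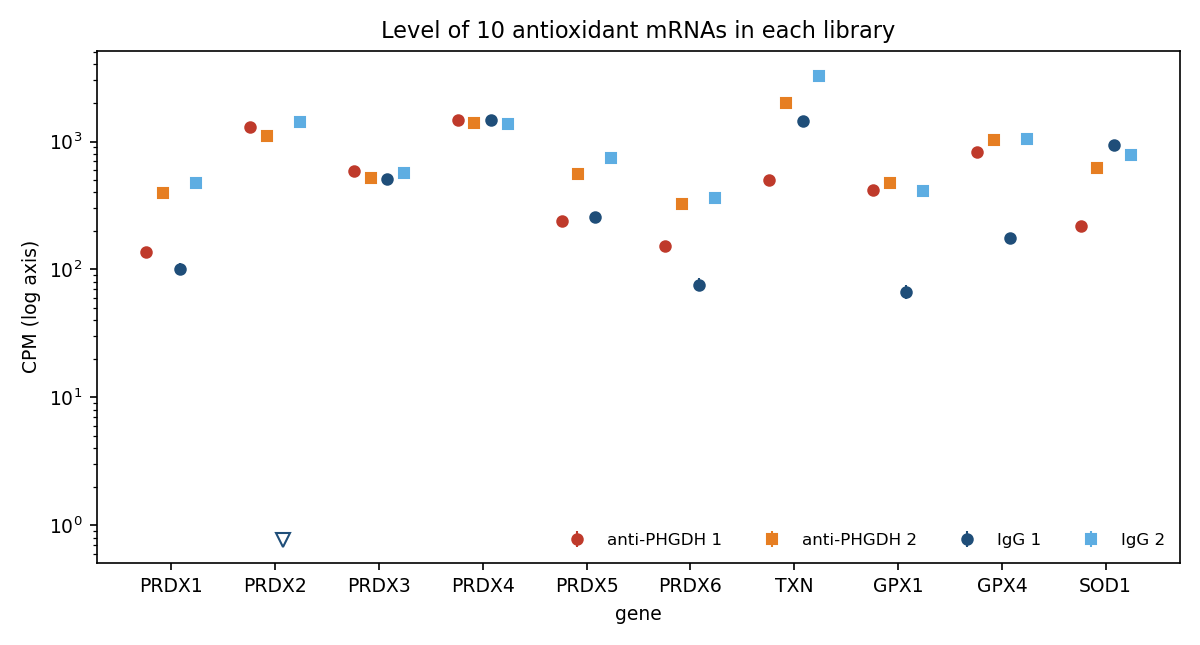
CPM (log axis) of the 10 transcripts in each of the 4 libraries; vertical bars are 95% Poisson intervals for counting error and are mostly smaller than the symbols. The open triangle for PRDX2 stands for its count of 0 in IgG replicate 1 and is drawn at a floor of 3 reads (0.774 CPM). PRDX4 lies between 1382 and 1478 CPM in all 4 libraries.

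PRDX2, a cytosolic peroxiredoxin that is also a major protein of red cells, is encoded on chromosome 19 (GRCh38, 12796823 to 12801800). It was at 1305 CPM in anti-PHGDH replicate 1, 1106 CPM in anti-PHGDH replicate 2, 1431 CPM in IgG replicate 2 and 0 CPM in IgG replicate 1. These values rest on 4392, 1346, 2260 and 0 reads. Both anti-PHGDH values thus lay below IgG replicate 2 and above IgG replicate 1. At the rate of IgG replicate 2, the depth of IgG replicate 1 would have held 5546 PRDX2 reads. With the count of 0 set to a floor of 3 reads, or 0.774 CPM, IgG replicate 2 was 1849-fold above IgG replicate 1. Anti-PHGDH replicate 1 was 1686-fold above that floor. These folds use the point values and this floor and are no bounds. The upper 95% Poisson limit for the count of 0 was 0.952 CPM.

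The log2 fold change of PRDX2 follows this one library. On log2(CPM + 1) it was 4.99 with all 4 libraries, -0.25 without IgG replicate 1 and 10.23 without IgG replicate 2. The values that include the 0 depend on the pseudocount and the model and are no bound: with all 4 libraries the fold change was 6.65 at a pseudocount of 0.1, 3.83 at 5, 0.59 in edgeR and 0.89 in DESeq2. Between the libraries numbered 2, anti-PHGDH over IgG was 0.773 (95% interval 0.722 to 0.828, counting error only). The comparison of the antibodies for PRDX2 therefore pointed one way with the control at 0 and the other way without it.

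An entry of 0 in IgG replicate 1 was common among genes, but not among genes with CPM as high as PRDX2. CPM are not per length, so this order reflects transcript length as well as abundance. Of the 10 transcripts, 1 was at 0 there (background 61.9%). Of the 851 genes with at least 100 CPM in each of the other 3 libraries, 133 were at 0 in IgG replicate 1 (15.6%), and 1 of the 10 was among these 133. A total of 53 genes were at least as high as PRDX2 by their lowest value in the other 3 libraries (1106 CPM or more), and 1 of the 53, PRDX2 itself, was at 0 in IgG replicate 1. No other gene of the 5895 at 0 in that library had a higher lowest value elsewhere. Since PRDX2 was chosen for this entry, the rank is a description.

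**Figure D2:**
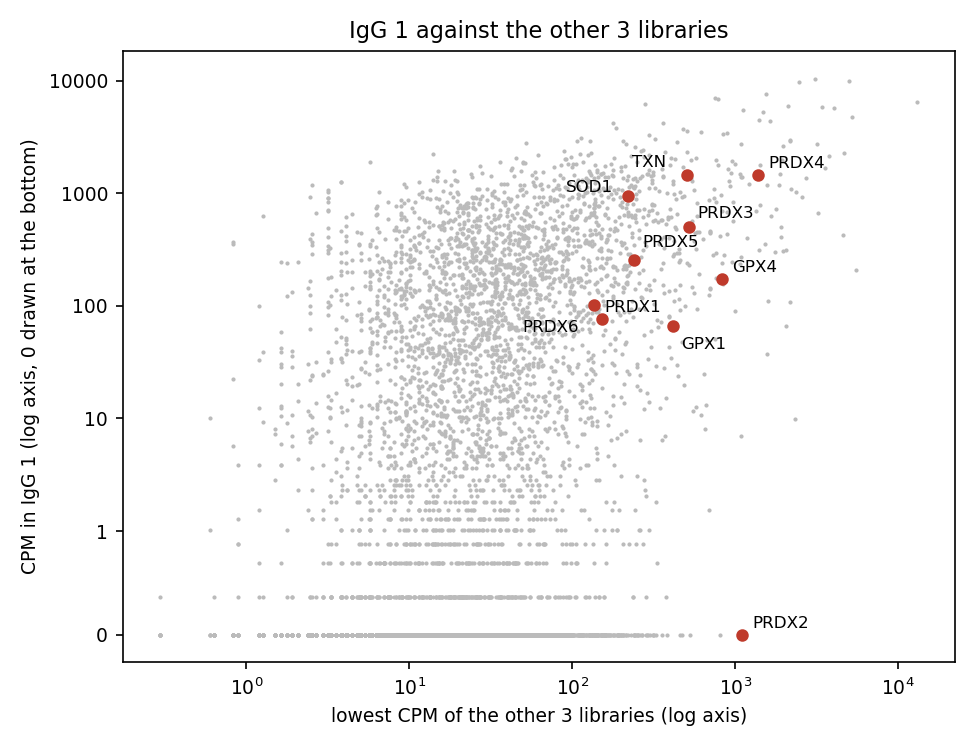
Each point is a gene tested; the horizontal axis is its lowest CPM in the 3 libraries other than IgG replicate 1, and the vertical axis its CPM in IgG replicate 1 (both log axes, with 0 drawn at the bottom). The 10 transcripts are in red: 9 lie between 66.8 and 1469 CPM in IgG replicate 1, and PRDX2 is the rightmost gene on the row of zeros.

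PRDX2 pseudogenes held no reads. The tables list 4 of them, and all were at 0 CPM in all 4 libraries. Over the 11 pseudogenes of the 10 genes in the tables, the highest level was 5.07 CPM (TXNP4 in IgG replicate 2). In the RefSeq annotation, 0 other genes overlap PRDX2.

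The gene most like PRDX2 over the 4 libraries was NDUFS8, a respiratory complex I subunit, by Euclidean distance in log2(CPM + 1). Its distance was 0.70, and its levels were 808 and 1185 CPM with anti-PHGDH and 0 and 1365 CPM with IgG (replicates 1 and 2). The next were UQCRC1 (distance 1.94), SNRPB (2.01), NDUFS7 (2.21) and PSMD4 (2.23). Of these 5 genes, UQCRC1 and NDUFS7 were also at 0 in IgG replicate 1, while PSMD4 was at 0.258 CPM, which is 1 read, and SNRPB at 1.55 CPM. The distance includes IgG replicate 1, so genes picked as near PRDX2 are at or near 0 there by construction. With 4 libraries the distance describes these libraries only.

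PRDX1, the cytosolic paralog of PRDX2, is encoded on chromosome 1 (GRCh38, 45511051 to 45522890). The anti-PHGDH libraries gave 136 CPM in replicate 1 and 394 CPM in replicate 2, averaging 265 ± 182 CPM (SD, n = 2). For IgG the values were 101 CPM in replicate 1 and 471 CPM in replicate 2, averaging 286 ± 262 CPM (SD, n = 2). Both libraries numbered 1 were low and both numbered 2 were high, whichever antibody was used. On the log2 scale anti-PHGDH minus IgG was 0.08 (SE 1.48), at a limma adjusted p of 0.971; leaving out IgG replicate 1 made it -1.02. Unlike PRDX2, PRDX1 had 392 reads in IgG replicate 1. RefSeq places MMACHC (22.2 to 71.6 CPM in 3 libraries and 402 CPM in IgG replicate 1) across part of the PRDX1 locus, and whether reads were counted by strand is not given in the sources used here, so reads of the shared stretch are uncertain.

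PRDX3, the mitochondrial peroxiredoxin encoded on chromosome 10 (GRCh38, 119167720 to 119178812), was nearly level. In the anti-PHGDH precipitates it reached 589 CPM in replicate 1 and 518 CPM in replicate 2, averaging 553 ± 50.2 CPM (SD, n = 2). The control IgG gave 508 CPM in replicate 1 and 564 CPM in replicate 2, averaging 536 ± 39.5 CPM (SD, n = 2). The antibodies' values interleaved, and in limma the log2 fold change came to 0.04 with SE 1.30 and an adjusted p of 0.982; leaving out IgG replicate 1 made it -0.03. The highest library was 1.16 times the lowest.

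PRDX4, the peroxiredoxin of the endoplasmic reticulum encoded on chromosome X (GRCh38, 23667493 to 23686397), was the steadiest. With anti-PHGDH its levels were 1478 CPM in replicate 1 and 1389 CPM in replicate 2, averaging 1434 ± 62.6 CPM (SD, n = 2). IgG gave 1469 CPM in replicate 1 and 1382 CPM in replicate 2, averaging 1425 ± 61.1 CPM (SD, n = 2). The libraries numbered 1 were slightly above those numbered 2 under both antibodies. In limma the log2 fold change came to 0.01 with SE 1.14 and an adjusted p of 0.996; leaving out IgG replicate 1 made it 0.05. The ratio of anti-PHGDH to IgG was 1.01 within number 1 (95% interval 0.968 to 1.05) and 1.01 within number 2 (0.943 to 1.07). On CPM of all reads on genes, these ratios did not differ from 1 beyond counting error. Ratios without mitochondrial transcripts, whose share differed between libraries, were not taken.

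The steadiness of PRDX4 and PRDX3 can be set against all genes. The highest level of PRDX4 was 1.07 times its lowest, and 0 of the 3623 genes tested that were above 0 in all 4 libraries had a smaller ratio. For PRDX3, 6 of those genes had a smaller ratio. At most 1.2 times was found for 2 of the 10 transcripts and for 14 of these 3623 genes. Genes at 0 in any library have no ratio and cannot qualify, so the share over all 9524 genes tested (0.147%) is lower than that among the 3623. The limit of 1.2 was set after these values were seen. The CPM used here include mitochondrial transcripts, which made up 28.8% of anti-PHGDH replicate 1 and 3.37 to 8.69% of the other libraries. The spread was not taken without these transcripts, so the rank of PRDX4 and PRDX3 holds for this scale only. For PRDX4 the levels in all 4 libraries rest on 4974, 1690, 5692 and 2183 reads, among them 5692 in IgG replicate 1, where PRDX2 had 0.

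**Figure D3:**
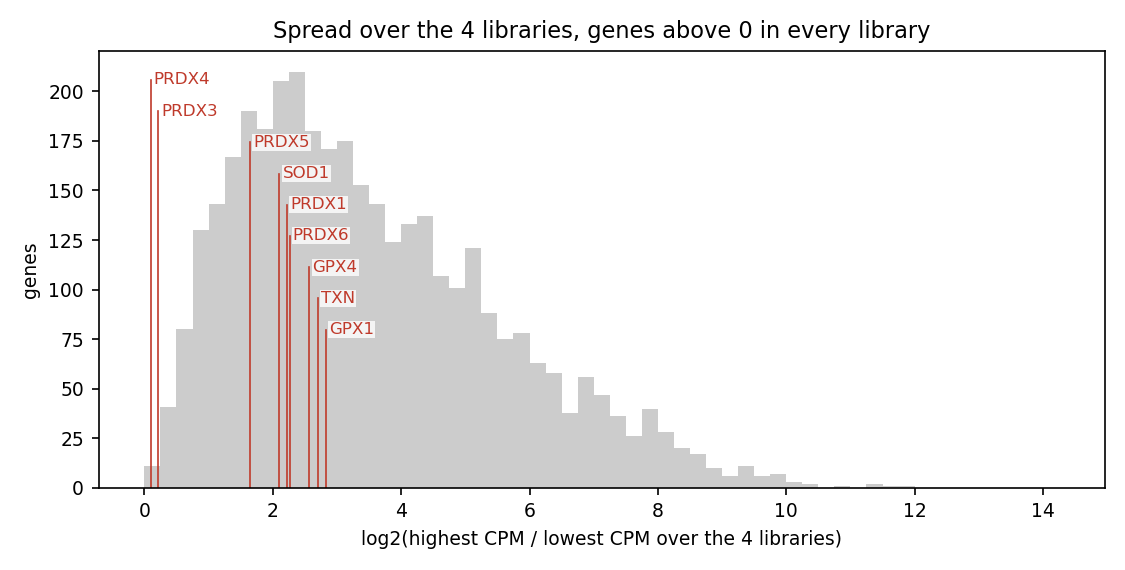
Histogram over the 3623 genes tested that were above 0 in every library of log2 of the highest over the lowest CPM; red lines mark 9 of the 10 transcripts (PRDX2 has no ratio because of its 0). PRDX4 (ratio 1.07) and PRDX3 (1.16) lie at the left edge, and the other 7 range from 3.12 (PRDX5) to 7.07 (GPX1).

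PRDX5, an atypical peroxiredoxin found in mitochondria, peroxisomes and the cytosol, is encoded on chromosome 11 (GRCh38, 64318121 to 64321811). With the PHGDH antibody it stood at 239 CPM in replicate 1 and 559 CPM in replicate 2, averaging 399 ± 226 CPM (SD, n = 2). In the IgG precipitates it stood at 257 CPM in replicate 1 and 746 CPM in replicate 2, averaging 502 ± 345 CPM (SD, n = 2). Again the libraries numbered 1 were low and those numbered 2 high. A log2 fold change of -0.26 (SE 1.35) had a limma adjusted p of 0.899; leaving out IgG replicate 1 made it -1.03. PRDX5 overlaps TRMT112 in RefSeq, whose levels by replicate were 294 and 826 CPM for the PHGDH antibody and 154 and 1007 CPM for the control, so its reads in the shared stretch are likewise uncertain.

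PRDX6, which uses a single reactive cysteine and glutathione in place of thioredoxin, is encoded on chromosome 1 (GRCh38, 173477335 to 173488815). Anti-PHGDH recovered 152 CPM in replicate 1 and 325 CPM in replicate 2, averaging 239 ± 122 CPM (SD, n = 2). IgG recovered 76.1 CPM in replicate 1 and 365 CPM in replicate 2, averaging 221 ± 205 CPM (SD, n = 2). In RefSeq a long noncoding RNA gene, LOC124904456, overlaps PRDX6, and no level was listed for it. The IgG values of PRDX6 enclosed its anti-PHGDH values. On the log2 scale anti-PHGDH minus IgG was 0.41 (SE 1.52), at a limma adjusted p of 0.856; leaving out IgG replicate 1 made it -0.71.

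TXN, the reductant of the peroxiredoxins, is encoded on chromosome 9 (GRCh38, 110243810 to 110256507). The anti-PHGDH libraries gave 503 CPM in replicate 1 and 2016 CPM in replicate 2, averaging 1259.9 ± 1070.0 CPM (SD, n = 2). For IgG the values were 1455 CPM in replicate 1 and 3279 CPM in replicate 2, averaging 2367 ± 1289 CPM (SD, n = 2). The groups overlapped, because anti-PHGDH replicate 2 lay above IgG replicate 1. Within each number the anti-PHGDH library had the lower value, with a ratio of 0.346 in number 1 (95% interval 0.327 to 0.365) and 0.615 in number 2 (0.586 to 0.645). In limma the log2 fold change came to -1.12 with SE 1.14 and an adjusted p of 0.677. Leaving out IgG replicate 1 made this fold change -1.70, and leaving out anti-PHGDH replicate 1 made it -0.12.

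GPX1, the cytosolic glutathione peroxidase encoded on chromosome 3 (GRCh38, 49357176 to 49358353), gave 415 CPM in anti-PHGDH replicate 1 and 473 CPM in replicate 2, averaging 444 ± 40.5 CPM (SD, n = 2). Its IgG values were 66.8 CPM in replicate 1 and 413 CPM in replicate 2, averaging 240.1 ± 245 CPM (SD, n = 2). Both anti-PHGDH values exceeded both IgG values, but IgG replicate 2 was only just below. The ratio was 6.22 within number 1 (95% interval 5.44 to 7.12) and 1.14 within number 2 (1.02 to 1.28). A log2 fold change of 1.41 (SE 1.44) had a limma adjusted p of 0.677; leaving out IgG replicate 1 made it 0.10.

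GPX4, the enzyme that reduces phospholipid hydroperoxides and holds ferroptosis in check, is encoded on chromosome 19 (GRCh38, 1103994 to 1106779). In the anti-PHGDH precipitates it reached 826 CPM in replicate 1 and 1033 CPM in replicate 2, averaging 929 ± 147 CPM (SD, n = 2). The control IgG gave 175 CPM in replicate 1 and 1042 CPM in replicate 2, averaging 608 ± 613 CPM (SD, n = 2). IgG replicate 1 was low and the other 3 libraries were close together. The ratio was 4.71 within number 1 (95% interval 4.33 to 5.13) and 0.992 within number 2 (0.921 to 1.07). On the log2 scale anti-PHGDH minus IgG was 1.11 (SE 1.27), at a limma adjusted p of 0.677; leaving out IgG replicate 1 made it -0.17. When IgG replicate 2 was left out, GPX1 (log2 fold change 2.71; limma adjusted p = 0.00734) and GPX4 (2.39; limma adjusted p = 0.0342) passed the threshold. That fit sets both anti-PHGDH libraries against IgG replicate 1 alone, with the spread taken from the anti-PHGDH libraries and the trend, and it called 74.9% of all genes tested higher. The calls therefore do not set GPX1 or GPX4 apart from other genes.

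SOD1, the cytosolic copper and zinc superoxide dismutase, is encoded on chromosome 21 (GRCh38, 31659693 to 31668931). With the PHGDH antibody it stood at 219.9 CPM in replicate 1 and 621 CPM in replicate 2, averaging 421 ± 284 CPM (SD, n = 2). In the IgG precipitates it stood at 946 CPM in replicate 1 and 789.5 CPM in replicate 2, averaging 868 ± 111 CPM (SD, n = 2). In RefSeq SOD1 overlaps SOD1-DT, at 0 CPM in every library, and a small nucleolar RNA gene, LOC124900469, for which no level was listed. Both IgG values of SOD1 exceeded both its anti-PHGDH values. Of the 10 transcripts SOD1 was the only one whose highest level was in IgG replicate 1. The ratio was 0.232 within number 1 (95% interval 0.214 to 0.252) and 0.787 within number 2 (0.718 to 0.862). In limma the log2 fold change came to -1.22 with SE 1.29 and an adjusted p of 0.677; leaving out IgG replicate 1 made it -1.09, and leaving out anti-PHGDH replicate 1 made it -0.48.

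**Figure D4:**
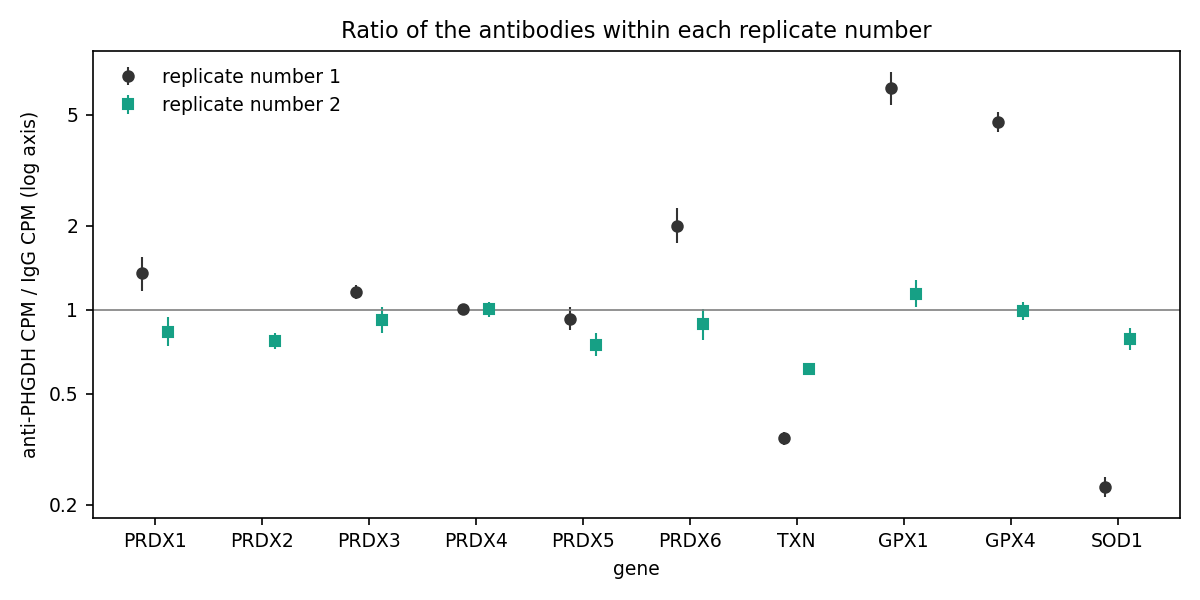
Ratio of anti-PHGDH CPM to IgG CPM (log axis) within replicate number 1 (dark circles) and number 2 (green squares), with exact 95% binomial intervals for counting error; PRDX2 has no point in number 1 because IgG replicate 1 was at 0. In number 1 the ratios run from 0.232 (SOD1) to 6.22 (GPX1) and in number 2 from 0.615 (TXN) to 1.14 (GPX1).

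Ratios of anti-PHGDH over IgG were also taken within each replicate number. Within number 1, 6 of the 9 transcripts with a ratio were above 1 and 3 below, with a median of 1.16. The median of 3629 genes was 0.923, and 49.0% of them were above 1. These are the genes tested that were above 0 in IgG replicate 1, because a gene at 0 there has no ratio. Within number 2, 2 of 10 were above 1 and 8 below, with a median of 0.862, where the median of 9508 genes was 1.14 and 63.1% of them were above 1. GPX1 and PRDX4 were above 1 in both numbers, and TXN, SOD1 and PRDX5 below 1 in both. The intervals of PRDX4 in both numbers and of PRDX5 in number 1 include 1. These ratios compare pairs of libraries, not the conditions, and the labels do not say that a number marks a shared lysate or day. Their CPM include mitochondrial transcripts, whose share differed between libraries, and the ratios were not taken without them.

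Levels also differed by replicate number. Both libraries numbered 2 were above both numbered 1 for 5 of the 10 (PRDX1, PRDX5, PRDX6, TXN and GPX4; background 30.1%), and below them for 1 of the 10 (PRDX4; background 5.77%). With anti-PHGDH, the value in number 2 was 2.89 times that in number 1 for PRDX1, 2.34 times for PRDX5, 2.13 times for PRDX6, 4.01 times for TXN and 1.25 times for GPX4. With IgG the same ratios were 4.66, 2.90, 4.80, 2.25 and 5.94. Of the 78 genes tested from the wider antioxidant list below, 42 had both libraries numbered 2 above both numbered 1. For 5 of the 78 both were below. The backgrounds cover all genes tested and are not matched for abundance, so these counts do not set the 10 transcripts apart. This way of splitting the libraries was added after the values were seen. Depth moves with the number, since both libraries numbered 1 were the deeper ones, and its part in these values was not tested.

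Together the 10 transcripts took 0.586% of reads in anti-PHGDH replicate 1, with a 95% Wilson interval of 0.578 to 0.595%, and 0.844% in anti-PHGDH replicate 2, with one of 0.827 to 0.860%. The IgG shares were 0.506% (replicate 1, interval 0.498 to 0.513%) and 1.05% (replicate 2, interval 1.03 to 1.06%). The anti-PHGDH shares lay between the IgG shares. Mitochondrial transcripts made up 28.8% of anti-PHGDH replicate 1 and 3.37 to 8.69% of the others. With these genes left out of the total, the shares were 0.824 and 0.924% with anti-PHGDH and 0.526 and 1.08% with IgG, and the order was kept. IgG replicate 1 held the lowest level of 6 of the 10 transcripts and IgG replicate 2 the highest level of 6. Of all genes tested, 61.9% were at 0 in IgG replicate 1, against 15.6% of those with at least 100 CPM in each other library. Being at 0 is a narrower measure than being lowest. The shares of all genes lowest in IgG replicate 1 or highest in IgG replicate 2 were not counted, so nothing about these transcripts is read from either count.

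For each of the other 9 transcripts the single nearest gene over the 4 libraries was taken by the same distance. The closest matches were SSRP1 for PRDX5 (distance 0.27), TMBIM6 for PRDX3 (0.30), EIF3A for PRDX1 (0.31) and UQCRB for SOD1 (0.34). PRDX4 was nearest to ACTB (0.42), GPX4 to PFN1 (0.41), PRDX6 to PSMB10 (0.42), TXN to RPL35A (0.56) and GPX1 to PA2G4 (0.58). No nearest gene was another of the 10.

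The wider antioxidant system was read from a list of 89 further genes. Of these, 78 passed the filter; 7 of the 11 others were at 0 in all 4 libraries (SESN2, TXNDC5, GPX2, GPX7, GSTT2, SOD3 and HMOX2). In limma, 0 of the 78 passed the threshold in either direction, with 3 at an unadjusted p under 0.05, and edgeR and DESeq2 each called 0, with 3 at an unadjusted p under 0.05. The log2 fold change was above 0 for 59 and below 0 for 19, with a median of 1.67 beside 1.92 for all genes. Without IgG replicate 1 it was above 0 for 32 and below 0 for 44, with a median of -0.15. Of the 78, 43 were at 0 in IgG replicate 1 (55.1%, background 61.9%).

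By gene group, the median log2 fold change was 0.90 for 17 thioredoxin and peroxiredoxin partners, 1.88 for 23 glutathione genes, 0.74 for 4 further superoxide and peroxide genes and 2.61 for 11 genes of NADPH supply. It was 1.82 for 8 genes around NRF2, the transcription factor that drives antioxidant genes, 1.42 for 3 methionine sulfoxide reductases and 0.87 for 12 genes of selenoproteins and their synthesis. Without IgG replicate 1 the medians of these 7 groups ran from -0.82 (superoxide and peroxide genes) to 0.00 (selenoprotein genes). Every one of the 7 was above 0 with all libraries. Without that library each was below 0, except the selenoprotein median, which was 0.00 as rounded. The medians of all genes tested were 1.92 with all libraries and 0.14 without IgG replicate 1.

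**Figure D5:**
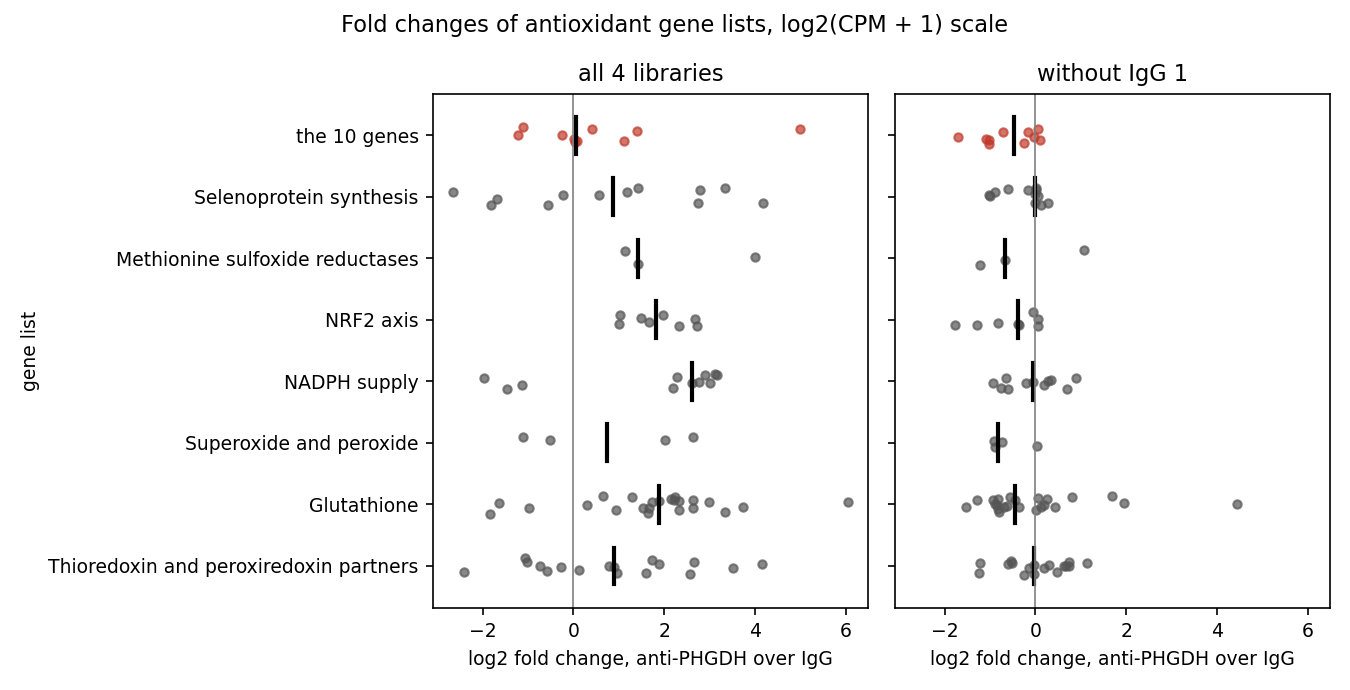
Log2 fold change (anti-PHGDH over IgG, on the log2(CPM + 1) scale) of the genes tested in 7 antioxidant gene groups and of the 10 transcripts, with all 4 libraries (left) and without IgG replicate 1 (right); points are genes and black bars medians. The median of the 10 transcripts was 0.06 on the left and -0.48 on the right.

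Among the wider list, 2 of 78 genes were 2-fold higher in every pair (background 9.30%) and 0 of 78 were 2-fold lower (background 0.0840%). The first was GPX3, the secreted glutathione peroxidase, at 999 and 39.5 CPM with anti-PHGDH and 0 and 8.23 CPM with IgG. The other was GSTM2, a glutathione transferase, at 66.3 and 29.6 CPM with anti-PHGDH and 0 and 10.8 CPM with IgG. GPX3 had the highest log2 fold change of the list, 6.05 with SE 2.33 and a limma adjusted p of 0.677. Leaving out IgG replicate 1 gave 4.45 (limma adjusted p = 1.19e-04), the only one of the 78 called in that fit, in which 1.04% of all genes were called higher. That fit has 1 IgG library (8.23 CPM), so the call has no replicate check in the IgG arm. The spread in that fit comes from the anti-PHGDH libraries and the trend over genes. For GPX3 the anti-PHGDH libraries were at 999 and 39.5 CPM, so the call rests on the trend and not on agreement between them. The GPX3 level in anti-PHGDH replicate 1 thus stood far above that in replicate 2, while GPX1 and GPX4 were close in these libraries.

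The next highest log2 fold changes in the list were those of SELENOM, a selenoprotein of the endoplasmic reticulum (4.18), and P4HB, a protein disulfide isomerase (4.16), each with a limma adjusted p of 0.677. For SELENOM the anti-PHGDH values were 299 and 329 CPM and the IgG values 0 and 301 CPM. For P4HB they were 245 and 276 CPM against 0 and 213 CPM. Like PRDX2, both were at 0 in IgG replicate 1 alone, and without that library their log2 fold changes were 0.06 and 0.29.

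The lowest log2 fold changes were those of SELENOT (-2.65), SESN3 (-2.41) and ME2 (-1.97), each with a limma adjusted p of 0.677. They rested on IgG replicate 1, where SELENOT was at 1755 CPM, SESN3 at 842 CPM and ME2 at 156 CPM. In the other 3 libraries SELENOT ran from 27.1 to 58.8 CPM, SESN3 from 10.8 to 18.9 CPM and ME2 from 9.51 to 12.7 CPM. Without IgG replicate 1 the log2 fold changes were 0.12, 0.67 and -0.21. For these 3 genes IgG replicate 1 was thus the highest library, where for PRDX2 it was the lowest.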

How the data were processed

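RNA immunoprecipitation sequencing of HEK293T cells gave 4 libraries, 2 anti-PHGDH and 2 IgG, grouped by sample title. The authors deposited 1 table of CPM values per library. The submitters' processing notes name hg38, STAR 2.5.4b and featureCounts; the annotation and the settings for strand, duplicates and multiply mapped reads are not given in the sources used here. Within a library 99.98 to 100% of the values above 0 were whole multiples of 1 read (within 0.0023 reads or less), which gave the read totals; the values of the 10 transcripts were all whole. 1 read was worth 0.258 to 0.822 CPM. Gene positions are those of the RefSeq table for GRCh38.p14.

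limma 3.58.1 (R 4.3.3) was fitted to log2(CPM + 1) of 9524 genes (5 CPM or more in 2 or more libraries), with an intensity trend, two-sided, no covariates and a threshold of 0.05 on Benjamini-Hochberg adjusted p. With infinite prior degrees of freedom, the SE comes from the trend. Fold changes on this scale understate low genes. CPM are not per length, so an order of genes by CPM, and the distance used for nearest genes, reflect transcript length as well as abundance. edgeR 4.0.16 and DESeq2 1.42.0 were run on the recovered reads. The procedure was also run on simulated data in which all libraries shared the same spread and none resembled IgG replicate 1. That run therefore does not show how the procedure performs on these libraries.

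The 10 transcripts and the lists were chosen with earlier results of these data known. Named genes of the wider list are the 3 highest and 3 lowest fold changes and those 2-fold different in every pair; the nearest genes are 5 for PRDX2 and 1 for each other transcript. Alternatives covered pseudocount, filter, scaling, trend, replicate block, fold, count models and leaving out each library.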

Additional observations from a re-analysis of the deposited data

How the results depend on the processing

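The count of the 9 transcripts called by limma was 0 and stayed 0 in the alternatives that kept all 4 libraries; leaving out 1 library gave 0 to 2 (2 without IgG replicate 2). For the wider list it was 0, and 0 to 64 without 1 library (1 without IgG replicate 1, 64 without IgG replicate 2). The replicate block changed none of these calls, with 0 called in limma and 0 in edgeR; same-numbered libraries share only a number, and the correlation of their deviations from the group means was 0.01. Leaving out 1 library gave 0 to 3 transcripts 2-fold higher, 0 to 2 lower and 2 to 56 genes of the wider list 2-fold higher. The 3 and the 56 came without IgG replicate 2, when the only control was IgG replicate 1, where 61.9% of all genes tested were at 0. The shares of all genes in these settings were not counted, so these counts do not set the transcripts or the list apart. After centring on library medians, 1 transcript was 2-fold lower and 0 genes of the wider list were higher (2 in the reported setting); the latter count was 4 at 1.5-fold, 1 at 4-fold and 1 on quantile-normalized values. The median log2 fold change of the 10 transcripts (0.06) was -2.43 after centring and ran from -0.48 to 0.85 without 1 library. Centring shifts IgG replicate 1, where most genes are at 0, by a constant. The shares of reads without mitochondrial genes were 0.824, 0.924, 0.526 and 1.08% (anti-PHGDH 1 and 2, IgG 1 and 2).

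Centring moves the fold change of every gene down by the same amount, and by this alone the sign turned for PRDX1 (-2.41), PRDX3 (-2.45), PRDX4 (-2.49), PRDX6 (-2.09), GPX1 (-1.09) and GPX4 (-1.39). In other settings signs turned with TMM factors for PRDX1 (-0.19), PRDX3 (-0.23) and PRDX4 (-0.26), and after quantile normalization for PRDX5 (0.36). In edgeR they turned for PRDX1 (-0.32), PRDX3 (-0.22), PRDX4 (-0.26) and PRDX6 (-0.09), in edgeR with the replicate block for PRDX1 (-0.18), PRDX3 (-0.22) and PRDX4 (-0.26), and in DESeq2 for PRDX1 (-0.14) and PRDX4 (-0.02). Without 1 library the fold change ran from -1.02 to 1.19 for PRDX1, -0.05 to 0.14 for PRDX3, -0.04 to 0.05 for PRDX4, -1.03 to 0.51 for PRDX5, -0.71 to 1.54 for PRDX6 and -0.17 to 2.39 for GPX4. It ran from -2.12 to -0.12 for TXN and -1.97 to -0.48 for SOD1, which were negative in all 18 alternatives. PRDX2 ran from -0.25 to 10.23 and was negative in 1 of 18. The causes were not tested.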
